A study of Homo sapiens with 6 samples.

Results

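Ferritin is the iron-storage protein of the cell, a hollow shell built from heavy chains, encoded by FTH1, and light chains, encoded by FTL. The heavy chain oxidises iron as it enters the shell, and the light chain helps to lay it down as a mineral core. Both mRNAs carry an iron-responsive element in the 5′ untranslated region, to which the iron regulatory proteins bind when iron is scarce, blocking translation. Transcription of both genes is also raised by NRF2, a factor of the antioxidant response, and restrained by BACH1. Processed pseudogenes are intron-less copies made by reverse transcription of an mRNA and insertion elsewhere in the genome, and both ferritin genes have left many of them.

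The 6 genes described here are FTH1, FTL and 4 named processed pseudogenes, of 58302 genes in the deposited tables. FTH1P20, FTH1P7 and FTH1P8 are copies of FTH1, and FTLP3 is a copy of FTL. They were picked by symbol with their difference between the groups already known, so their levels and fold changes are given as a description without a p-value. Another 40 annotated ferritin genes and copies were not among them.

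RNA was sequenced from HL-60, an established human acute myeloid leukaemia line grown in suspension with 20% fetal bovine serum. The first group carried a short hairpin RNA against OSGEP (OSGEP shRNA, labelled as knockdown, 3 libraries) and the second a control hairpin (control shRNA, labelled as wild type, 3 libraries). OSGEP is the catalytic subunit of the complex that makes t6A, a modified base in the tRNAs for codons that begin with A, and the series title names leukaemogenesis and cytarabine resistance as its subjects. All 6 libraries share the cell line and the medium, and no label gives the number of hairpins against OSGEP or states that the libraries derive from independent cultures. A p-value here therefore reflects library-to-library spread alone, and that spread may be technical.

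Total counts per library ran between 8326982 and 10157091 with OSGEP shRNA and between 8414775 and 10025573 with control shRNA. OSGEP itself was at 21.2, 23.1 and 20.9 CPM (TMM-normalised counts, scaled to the library total) in OSGEP shRNA libraries 1, 2 and 3, against 49.1, 54.4 and 76.9 CPM in control shRNA libraries 1, 2 and 3. The groups did not overlap, and the log2 fold change was -1.47 (SE 0.21, edgeR quasi-likelihood test, Benjamini-Hochberg adjusted p = 0.000228). Of 14018 genes tested, 1507 were called at an adjusted p under 0.05, 727 higher and 780 lower with OSGEP shRNA, 5.19% and 5.56% of those tested. Where only library size was used for scaling, 859 were higher and 612 lower. Of 13 markers of HL-60 myeloid cells, all 13 were tested and 6 fell (MPO, ELANE, PRTN3, AZU1, FUT4 and MYB), and their summed level was 1546 to 1582 CPM with OSGEP shRNA against 3337 to 3485 CPM with control shRNA. In bulk RNA, fewer cells of a type and less RNA per cell cannot be told apart.

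Since the pseudogenes are near-copies of their parents' coding sequences, what separates reads from that part is a small number of bases. The untranslated regions of FTH1 and FTL lie outside the aligned part of the named copies. The stretches below are 60 bases of each parent's coding sequence, free of gaps in every named copy and with the most single-base differences summed over the copies. They are shown because, within the coding sequence, only such positions and gaps tell the genes apart. All are written 5′ to 3′ on the coding strand from GENCODE release 29 transcripts on GRCh38, and capitals mark bases that differ from the parent. The heavy-chain stretch covers bases 451 to 510 of the coding sequence, counted from 1 at the first base of the start codon.
FTH1: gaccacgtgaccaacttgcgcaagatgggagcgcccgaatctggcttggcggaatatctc
FTH1P20: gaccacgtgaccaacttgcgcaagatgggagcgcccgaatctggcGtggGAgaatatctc
FTH1P8: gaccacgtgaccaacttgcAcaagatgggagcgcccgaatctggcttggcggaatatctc

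In this stretch FTH1P20 carries T496G, C500G and G501A, written as the FTH1 base, its position and the base of the copy. FTH1P8 carries G470A alone. The light-chain stretch covers bases 415 to 474 of the FTL coding sequence, and FTLP3 differs there by T423C, C450G, T468A and G474A.
FTL: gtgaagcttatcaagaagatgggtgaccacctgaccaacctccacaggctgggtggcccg
FTLP3: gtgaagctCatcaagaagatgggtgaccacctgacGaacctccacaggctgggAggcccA

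Over their whole aligned length the copies match the parent coding sequence closely. FTH1P20 is 97.81% identical to FTH1 with 12 mismatches and a 4-base gap. FTH1P7 is 97.28% identical with 15 mismatches and no gap, and FTH1P8 is 98.05% identical with 10 mismatches and 2 gaps over coding bases 22 to 536. FTLP3 is 97.73% identical to FTL with 12 mismatches and no gap. The copies also differ in what they could encode. Read from the parent's start codon, FTLP3 keeps an open frame over all 175 codons of FTL, whereas FTH1P20 meets a stop after 32 codons and FTH1P7 after 79 of the 183 codons of FTH1. The aligned part of FTH1P8 begins after the start codon.

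A read of 150 bases, the length given by the labels, nearly always spans a base that differs. Of the 150-base windows of each copy, 0 of 399 in FTH1P20, 2 of 403 in FTH1P7, 0 of 365 in FTH1P8 and 0 of 379 in FTLP3 were identical to the parent transcript. Along the FTH1 coding sequence, a 150-base window holds between 1 and 9 differences from FTH1P20, with a median of 4, where each base of a gap counts as a difference. Along that of FTL, a window holds between 1 and 7 differences from FTLP3, with a median of 2. How the counting treated reads with several alignments is not given in the sources used here, so the values of the pseudogenes are uncertain as levels of their own RNA, and those of FTH1 and FTL may lack reads that went to copies.

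**Figure D1:**
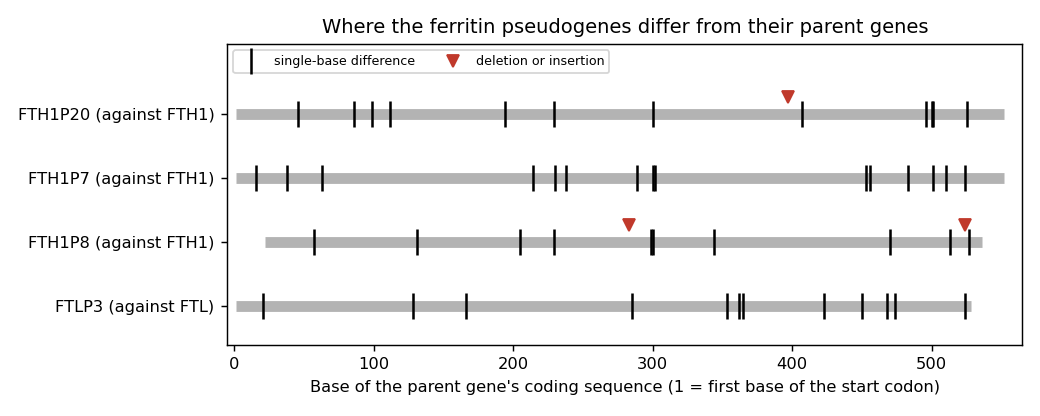
Positions at which each named pseudogene differs from its parent. The x axis is the base of the parent's coding sequence, grey bars show the aligned part, black ticks show single-base differences and red triangles show gaps. FTH1P20 has 12 ticks and 1 triangle and FTLP3 has 12 ticks and no triangle, and the ticks are spread unevenly, with the longest identical run of 150 bases in FTH1P7.

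The iron-responsive elements of both parents are shown because they are the sites through which iron controls ferritin translation. Each was found in the 5′ untranslated region of the same transcripts by the letters CNNNNNCAGTGN on the sense strand, and capitals mark the bulged C and the loop.
FTH1: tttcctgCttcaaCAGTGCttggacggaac
FTL: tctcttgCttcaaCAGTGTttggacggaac

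The match begins at base 65 of the FTH1 transcript and base 41 of the FTL transcript. The same letters occur in the 5′ untranslated region of 1631 of 18110 coding genes, 9.01% of them, so the letters alone are a description and not a site. The annotated sequences of the 4 pseudogenes align to the coding sequence alone and do not reach this region. Of the codons of FTH1, 47 of 183 (25.7%) start with A, and of those of FTL 38 of 175 (21.7%), against a median of 27.2% over 19490 coding genes.

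FTL, the light chain (ENSG00000087086, chr19:48965301-48966878, plus strand), was the most abundant of the 6. It was at 8564, 7144 and 7543 CPM in OSGEP shRNA libraries 1, 2 and 3, against 3337, 3550 and 3765 CPM in control shRNA libraries 1, 2 and 3. Every OSGEP shRNA library lay above every control shRNA library, as was so for 13.3% of all genes tested. The means were 7751 ± 732 CPM with OSGEP shRNA and 3551 ± 214 CPM with control shRNA (SD, n = 3 each), a log2 fold change of 1.13 (SE 0.08), or 2.18-fold. Raw counts of FTL took 0.844, 0.761 and 0.764% of all counts in OSGEP shRNA libraries 1, 2 and 3 and 0.327, 0.346 and 0.364% in control shRNA libraries 1, 2 and 3. By count it ranked 9th in each OSGEP shRNA library, whereas its rank in the control shRNA libraries was 21, 18 and 18.

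FTH1, the heavy chain (ENSG00000167996, chr11:61959718-61967660, minus strand), was at 393, 497 and 423 CPM in OSGEP shRNA libraries 1, 2 and 3, against 185, 145 and 138 CPM in control shRNA libraries 1, 2 and 3. The groups did not overlap, and the highest value was in OSGEP shRNA library 2, the library in which FTL was lowest of its group. Mean levels were 438 ± 53.5 CPM with OSGEP shRNA and 156 ± 25.5 CPM with control shRNA (SD, n = 3 each), with a log2 fold change of 1.49 (SE 0.13), or 2.81-fold. Per kilobase of transcript, FTH1 was at 356 ± 43.6 CPM with OSGEP shRNA and 127 ± 20.8 CPM with control shRNA, and FTL at 8828 ± 834 CPM with OSGEP shRNA and 4044 ± 244 CPM with control shRNA. On that scale the light chain stood far above the heavy chain in every library, with counts on copies left out. Over the libraries, copies held 53.2 to 73.2% of heavy-chain counts and 26.0 to 29.9% of light-chain counts, so the size of that gap is uncertain.

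**Figure D2:**
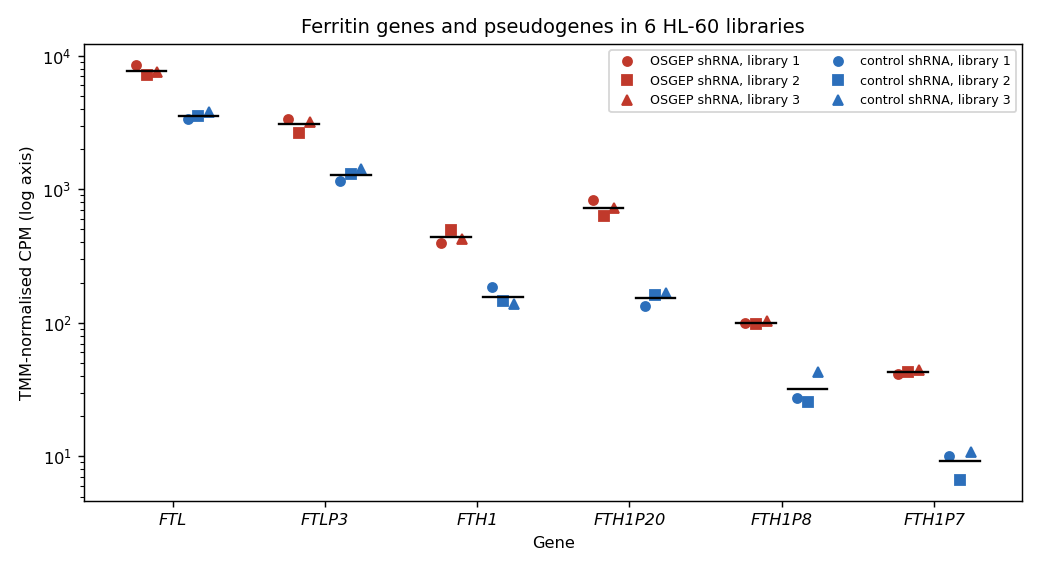
Level of the ferritin genes and named pseudogenes in each library, in TMM-normalised CPM on a log axis. Red points are OSGEP shRNA libraries, blue points control shRNA libraries, the marker shape gives the library number and the black line the group mean. For all 6 genes every red point lies above every blue point, from FTL at 7144 CPM or more with OSGEP shRNA down to FTH1P7 at 44.6 CPM or less. The same held for 13.3% of all genes tested.

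FTLP3, the light-chain copy on chromosome 20 (ENSG00000226608, chr20:4023917-4024444, plus strand), drew the second highest counts. It was at 3342, 2647 and 3204 CPM in OSGEP shRNA libraries 1, 2 and 3, against 1162, 1294 and 1410 CPM in control shRNA libraries 1, 2 and 3. The groups were apart, and in each group the highest and the lowest library were the same for FTLP3 as for FTL. Its mean was 3064 ± 368 CPM with OSGEP shRNA and 1289 ± 124 CPM with control shRNA (SD, n = 3 each), a log2 fold change of 1.25 (SE 0.10). The count ratio of FTLP3 to FTL within a library was 0.390, 0.371 and 0.425 with OSGEP shRNA and 0.348, 0.365 and 0.375 with control shRNA, so the groups overlapped and the copy's counts moved nearly in step with those of its parent.

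FTH1P20, the copy on chromosome 2 (ENSG00000226564, chr2:180872867-180873414, minus strand), had with FTH1P7 the highest log2 fold changes of the 6. It was at 834, 635 and 719.7 CPM in OSGEP shRNA libraries 1, 2 and 3, against 134, 163 and 168 CPM in control shRNA libraries 1, 2 and 3. No values overlapped between the groups. The mean was 729.8 ± 100.1 CPM with OSGEP shRNA and 155 ± 18.0 CPM with control shRNA (SD, n = 3 each), and the log2 fold change was 2.24 (SE 0.13), or 4.72-fold. Within a library, the count ratio of FTH1P20 to FTH1 was 2.12, 1.28 and 1.70 with OSGEP shRNA, against 0.726, 1.12 and 1.22 with control shRNA. The mean ratio was 1.66-fold higher with OSGEP shRNA and the groups did not overlap, although OSGEP shRNA library 2 and control shRNA library 3 were close.

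FTH1P7, the copy on chromosome 13 (ENSG00000232187, chr13:22696023-22696574, minus strand), was at 41.3, 42.6 and 44.6 CPM in OSGEP shRNA libraries 1, 2 and 3, against 9.995, 6.65 and 10.8 CPM in control shRNA libraries 1, 2 and 3. Its log2 fold change was 2.23 (SE 0.26), and it rested on 1233 counts over the OSGEP shRNA libraries and 250 over the control shRNA libraries. Its ratio to FTH1 was also apart between groups, at 0.105, 0.0858 and 0.105 with OSGEP shRNA and 0.0541, 0.0460 and 0.0787 with control shRNA. FTH1P7 and FTH1P20 kept a similar ratio to each other, at 0.0595 ± 0.00905 with OSGEP shRNA and 0.0600 ± 0.0173 with control shRNA (SD, n = 3 each).

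FTH1P8, the copy on the X chromosome (ENSG00000219507, chrX:148052233-148052746, plus strand), was at 100.1, 98.6 and 103 CPM in OSGEP shRNA libraries 1, 2 and 3, against 27.5, 25.7 and 43.1 CPM in control shRNA libraries 1, 2 and 3. The groups were apart, with the control shRNA libraries more spread than the OSGEP shRNA libraries, and the log2 fold change was 1.65 (SE 0.19). Its count ratio to FTH1 was 0.255, 0.199 and 0.243 with OSGEP shRNA and 0.149, 0.178 and 0.313 with control shRNA. These ratios overlapped, and their mean was 1.09-fold higher with OSGEP shRNA, a log2 difference of 0.12 that came to -0.08 without control shRNA library 1 and to 0.51 without control shRNA library 3.

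**Figure D3:**
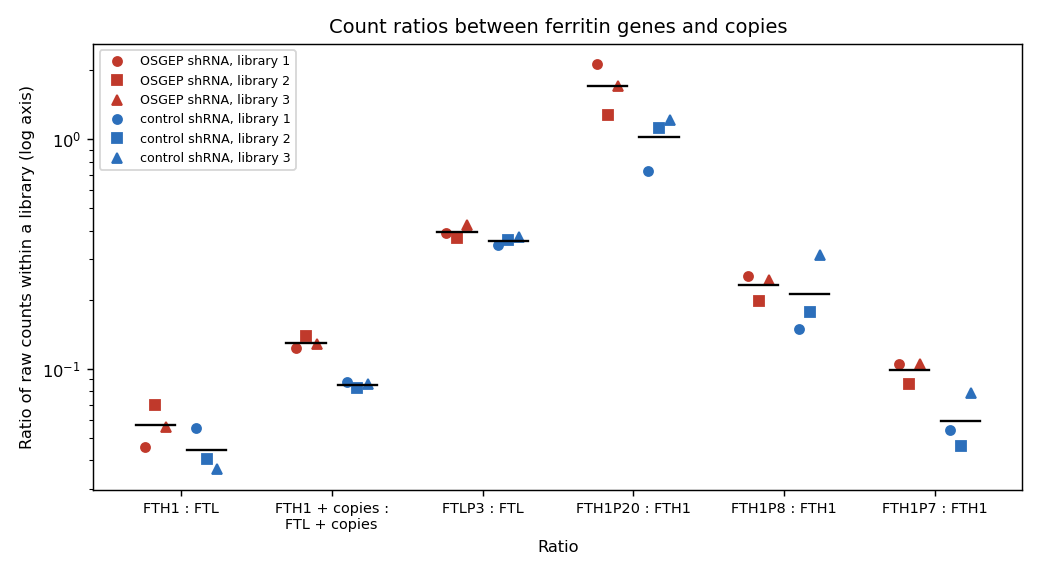
Ratios of raw counts within each library, on a log axis. Red points are OSGEP shRNA libraries, blue points control shRNA libraries and black lines group means. The groups are apart for FTH1P20 to FTH1, FTH1P7 to FTH1 and the heavy-chain to light-chain sums, and they overlap for FTH1 to FTL, FTLP3 to FTL and FTH1P8 to FTH1.

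All 6 genes passed the filter on low counts and all 6 were called higher with OSGEP shRNA, where 10.8% of all genes tested were called and 5.19% were called higher. The groups did not overlap for any of the 6. Of all genes tested, 28.9% did not overlap either, 13.3% higher and 15.6% lower with OSGEP shRNA. All 6 also kept their call under each alternative scaling, filter, block, tool and left-out library run, and FTH1 and FTL with the copies added to them. Because the 6 were picked on this contrast and the alternatives refit the same libraries, nothing is read from these counts. Among 1757 genes with a mean of at least 100 CPM, 22 had a larger log2 fold change than FTH1, with FTH1P20 among them. For FTL the number was 35, which included FTH1, FTH1P20 and FTLP3. Such ranks rest on the values known when the 6 were picked and are a description. Summed, the 6 genes took 1.31, 1.18 and 1.22% of all counts in OSGEP shRNA libraries 1, 2 and 3 and 0.476, 0.506 and 0.534% in control shRNA libraries 1, 2 and 3.

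The ratio of the chains depended on how copies were treated. The count ratio of FTH1 to FTL was 0.0459, 0.0696 and 0.0561 with OSGEP shRNA and 0.0554, 0.0407 and 0.0365 with control shRNA. The groups overlapped, since control shRNA library 1 lay among the OSGEP shRNA values. With the counts of 25 annotated heavy-chain copies added to FTH1 and those of 16 light-chain copies to FTL, the ratio was 0.123, 0.139 and 0.129 with OSGEP shRNA and 0.0877, 0.0828 and 0.0861 with control shRNA. The groups were then apart, and the mean ratio was 1.52-fold higher with OSGEP shRNA.

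For the heavy chain, the sum varied less between libraries of a group than the parent alone. FTH1 with its copies came to 1468, 1366 and 1386 CPM in OSGEP shRNA libraries 1, 2 and 3, against 395, 402 and 447 CPM in control shRNA libraries 1, 2 and 3, a log2 difference of 1.76. FTL with its copies came to 11931, 9805 and 10767 CPM in OSGEP shRNA libraries 1, 2 and 3, against 4507, 4854 and 5191 CPM in control shRNA libraries 1, 2 and 3, a log2 difference of 1.16. The copies held 73.2, 63.6 and 69.5% of heavy-chain counts in OSGEP shRNA libraries 1, 2 and 3 and 53.2, 64.0 and 69.2% in control shRNA libraries 1, 2 and 3, so that share overlapped. Light-chain copies held 27.1 to 29.9% of light-chain counts with OSGEP shRNA and 26.0 to 27.5% with control shRNA.

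The other ferritin copies had been left aside with their values known too. Most were near 0, although FTH1P16 stood above FTH1P7 in mean CPM in both groups. Of the 40, 8 passed the filter and 0 were called by edgeR, where 10.8% of all genes tested were called. An unadjusted p under 0.05 was found for 1 of them, and 1 was called without control shRNA library 3. Their median log2 fold change was 0.84, where that of all genes tested was 0.005. FTH1P16, the highest of them, averaged 59.1 ± 6.76 CPM with OSGEP shRNA and 44.1 ± 17.1 CPM with control shRNA (SD, n = 3 each), with a log2 fold change of 0.42 (SE 0.24, edgeR adjusted p = 0.330). FTH1P2, the next, averaged 21.2 ± 5.26 CPM with OSGEP shRNA and 11.2 ± 5.42 CPM with control shRNA, with a log2 fold change of 0.93 (SE 0.36, edgeR adjusted p = 0.122). FTMT, the mitochondrial ferritin, had 16 counts over the OSGEP shRNA libraries and 2 over the control shRNA libraries, and FTHL17, a heavy-chain relative, had 0 in all 6 libraries.

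**Figure D4:**
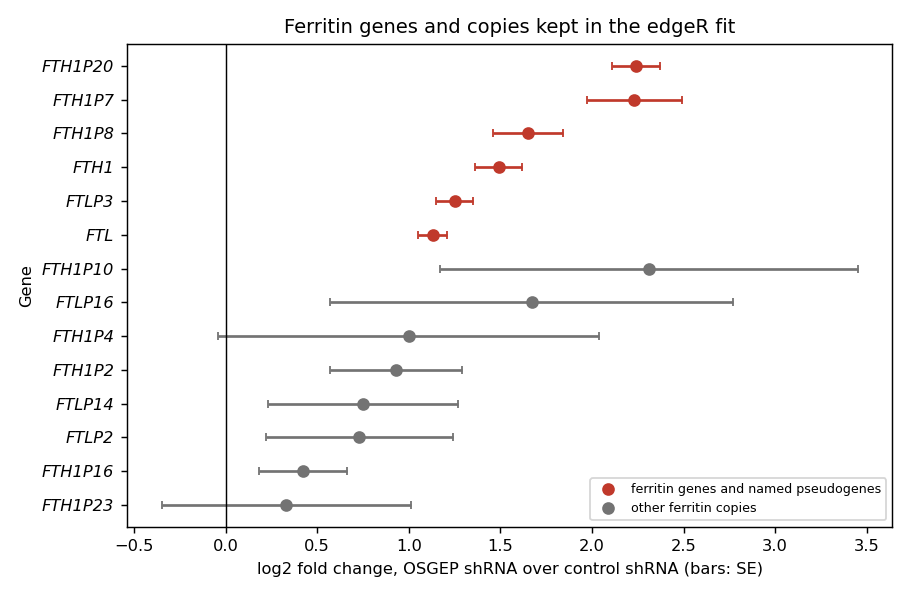
Log2 fold change, OSGEP shRNA over control shRNA, of every ferritin gene and copy kept in the edgeR fit, with bars of 1 SE. Red points are the ferritin genes and named pseudogenes, at 1.13 to 2.24, and grey points are the 8 other copies, at 0.33 to 2.31. Grey bars are wider than every red bar, except that FTH1P16 (SE 0.24) has a narrower bar than FTH1P7 (SE 0.26).

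Copies of other genes gave a different count. Of 1605 processed pseudogenes outside the ferritin family that were tested, 24 were called higher and 68 lower with OSGEP shRNA, 5.73% in all, against 10.8% of all genes tested, and their median log2 fold change was 0.01. Among genes that overlap the 6, BEST1 lies on the other strand across FTH1 and had 92 counts over the OSGEP shRNA libraries and 41 over the control shRNA libraries (log2 fold change 1.04, SE 1.00, edgeR adjusted p = 0.619). SCHLAP1 lies across FTH1P20 on the other strand and had 0 counts in all 6 libraries.

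Among other transcripts with iron-responsive elements, 2 rose. Of the 11 listed, 10 were tested and 0 fell, 20.0% called against 10.8% of all genes tested, with a median log2 fold change of 0.38. EPAS1, a hypoxia-inducible factor whose mRNA carries a 5′ element, averaged 21.8 ± 6.02 CPM with OSGEP shRNA and 1.79 ± 1.25 CPM with control shRNA (SD, n = 3 each; log2 fold change 3.59, SE 0.48, edgeR adjusted p = 0.000106). Without control shRNA library 2, EPAS1 had a log2 fold change of 4.31. SLC11A2, the divalent metal transporter DMT1, averaged 82.2 ± 19.0 CPM with OSGEP shRNA and 46.6 ± 12.1 CPM with control shRNA (log2 fold change 0.82, edgeR adjusted p = 0.0178), a call lost without OSGEP shRNA library 1 (0.61), control shRNA library 1 (0.74) or control shRNA library 3 (0.68). TFRC, the transferrin receptor, whose mRNA is stabilised by iron regulatory proteins, averaged 562 ± 56.7 CPM with OSGEP shRNA and 668 ± 36.9 CPM with control shRNA and was not called (log2 fold change -0.25, edgeR adjusted p = 0.141). The groups did not overlap for TFRC, lower with OSGEP shRNA, or for 4 others of the 10 tested, which were higher. Over all genes tested, 15.6% did not overlap and were lower, and 13.3% did not overlap and were higher. SLC40A1, the iron exporter ferroportin, was near the floor, with 17 counts over the OSGEP shRNA libraries and 36 over the control shRNA libraries.

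Regulators of ferritin were called about as often as genes at large. Of 23 listed genes of ferritin control and turnover, 20 were tested, 2 rose and 0 fell, 10% called against 10.8% of all genes tested, and the median log2 fold change was 0.13. IREB2, an iron regulatory protein, averaged 168 ± 9.01 CPM with OSGEP shRNA and 172 ± 16.3 CPM with control shRNA (log2 fold change -0.04, edgeR adjusted p = 0.914). ACO1, the other iron regulatory protein, had a log2 fold change of -0.44 (edgeR adjusted p = 0.333), and FBXL5, which marks IREB2 protein for degradation, one of 0.39 (edgeR adjusted p = 0.205). NCOA4, the receptor that takes ferritin to the lysosome, averaged 314 ± 17.4 CPM with OSGEP shRNA and 269 ± 41.0 CPM with control shRNA (log2 fold change 0.22, edgeR adjusted p = 0.317). The mRNAs of the transcription factors had log2 fold changes of 0.36 for NFE2L2, which encodes NRF2, and 0.00 for BACH1, with edgeR adjusted p of 0.152 and 0.992. Of the 20 tested, 6 did not overlap between the groups and were higher with OSGEP shRNA, FBXL5, NCOA4 and NFE2L2 among them. In the other direction 1 did not overlap. The shares over all genes tested were 13.3% and 15.6%.

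The members of that list that rose were CD63, a membrane protein of endosomes and secreted vesicles, and WDR45, an autophagy protein. CD63 averaged 592 ± 80.4 CPM with OSGEP shRNA and 430.4 ± 5.86 CPM with control shRNA (log2 fold change 0.46, edgeR adjusted p = 0.0105), and its call was lost without control shRNA library 1 (0.45), 2 (0.47) or 3 (0.45). WDR45 averaged 28.3 ± 2.36 CPM with OSGEP shRNA and 15.9 ± 2.64 CPM with control shRNA (log2 fold change 0.83, edgeR adjusted p = 0.0455). Its call was lost without OSGEP shRNA library 2 (0.84) or 3 (0.79) and without control shRNA library 1 (0.95), 2 (0.83) or 3 (0.71). Without control shRNA library 1, 2 or 3 the list had 0 called genes.

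Genes of iron uptake, export and heme moved in both directions. Of 28 tested, 6 rose and 2 fell, 28.6% called against 10.8% of all genes tested, their median log2 fold change was 0.27, and 5 were called without OSGEP shRNA library 3 or without control shRNA library 3. HMOX1, the heme oxygenase that frees iron from heme, averaged 33.7 ± 1.95 CPM with OSGEP shRNA and 1.42 ± 1.65 CPM with control shRNA (SD, n = 3 each; log2 fold change 4.62, SE 0.54, edgeR adjusted p = 2.77e-05). Its log2 fold change was 6.15 without control shRNA library 3 and 5.23 with limma-voom. Its counts were 340, 342 and 287 in OSGEP shRNA libraries 1, 2 and 3, against 5, 4 and 27 in control shRNA libraries 1, 2 and 3. LRP1, which takes up hemopexin-bound heme, SLC48A1, a heme transporter of the lysosome, and ISCU, the scaffold for iron-sulphur clusters, had log2 fold changes of 1.71, 1.00 and 0.72 (edgeR adjusted p = 0.00151, 0.00364 and 0.00161). ALAS1 and FECH of heme synthesis, named after their values were seen, also rose (0.57 and 0.50). The genes that fell, likewise named afterwards, were SLC39A8, a zinc and iron importer (-0.64), and SLC25A37, the mitochondrial iron importer mitoferrin (-0.56). ALAS1 lost its call without OSGEP shRNA library 3 (0.58), control shRNA library 2 (0.54) or control shRNA library 3 (0.52), and SLC39A8 without OSGEP shRNA library 3 (-0.55). SLC25A37 lost its call without control shRNA library 3 (-0.52). FECH lost its call without OSGEP shRNA library 2 (0.46) or 3 (0.56) or without any 1 control shRNA library (0.43 to 0.60).

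NRF2 targets held the largest share of calls among the 4 lists around ferritin. Of 24 tested, 15 rose and 1 fell, 66.7% called against 10.8% of all genes tested, with a median log2 fold change of 0.68. SLC7A11, the cystine importer, averaged 84.1 ± 6.61 CPM with OSGEP shRNA and 4.19 ± 0.371 CPM with control shRNA (SD, n = 3 each; log2 fold change 4.33, SE 0.22, edgeR adjusted p = 1.85e-09). NQO1, a quinone reductase, was at 219, 141 and 185 CPM in OSGEP shRNA libraries 1, 2 and 3, against 5.15, 16.98 and 14.9 CPM in control shRNA libraries 1, 2 and 3 (log2 fold change 3.88, SE 0.31, edgeR adjusted p = 4.4e-07). CES1, a carboxylesterase, and ME1, malic enzyme, had log2 fold changes of 2.66 and 2.45 (edgeR adjusted p = 8.55e-05 and 6.48e-07). GSR, glutathione reductase, was the 1 gene that fell, named after its value was seen, at 28.8 ± 5.59 CPM with OSGEP shRNA and 55.9 ± 7.96 CPM with control shRNA (log2 fold change -0.96, edgeR adjusted p = 0.00597), and its call was lost without control shRNA library 2 (-0.85).

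**Figure D5:**
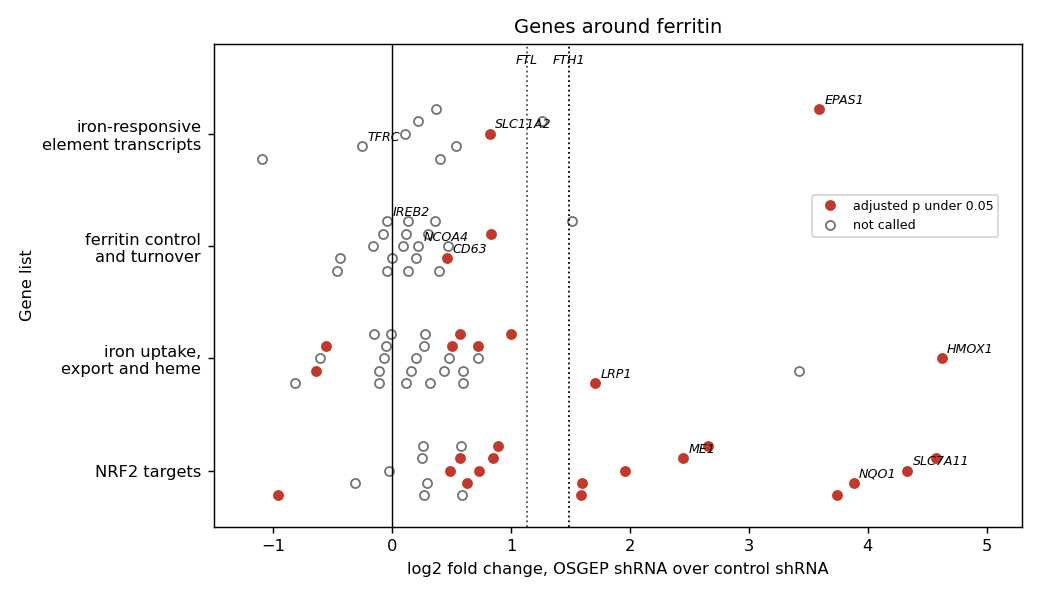
Log2 fold change, OSGEP shRNA over control shRNA, of every tested gene in 4 lists around ferritin, with 1 point for each gene. Filled red points were called at an edgeR adjusted p under 0.05 and open points were not, and dotted lines mark FTL at 1.13 and FTH1 at 1.49. Red points make up 16 of 24 NRF2 targets, 8 of 28 genes of iron uptake, export and heme, and 2 genes in each of the other lists.

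The genes most like each chain across the 6 libraries were found by the root mean square difference of centred log2 CPM among 9268 coding genes. Those nearest FTL were CTSB (0.0316), GPD2 (0.0806), SCARB2 (0.0885), SH3PXD2A (0.0914) and SIRPA (0.0972). Those nearest FTH1 were TFEC (0.117), DNAJB2 (0.143), EPB41L3 (0.165), TAF13 (0.175) and RBM47 (0.182). The chains themselves were 0.311 apart. The nearest genes are the lowest values among 9268 genes, whereas the other chain is 1 fixed gene. The profiles also hold the difference between groups known when the 6 were picked, so nothing about the chains is read from these distances.

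Markers of other cells were set beside these levels, because ferritin is abundant in macrophages and red cell precursors. Among erythroid markers, HBG1, EPB42, SLC4A1, AHSP and RHAG were at 0 in all 6 libraries, and the summed level was 0.939 to 7.12 CPM with OSGEP shRNA against 2.95 to 8.28 CPM with control shRNA. The summed level of 13 macrophage markers was 133 to 158 CPM with OSGEP shRNA against 40.1 to 45.2 CPM with control shRNA. Of these, 4 were tested and the others were near 0. With OSGEP shRNA, most of the sum was CD14 (mean 72.1 CPM), VSIG4 (42.2 CPM) and CSF1R (16.4 CPM). Over all genes tested, 5.19% were called higher and 5.56% lower. CD14 and VSIG4 rose (log2 fold change 3.48 and 3.23), MARCO fell (-1.61), CSF1R was not called (0.05, edgeR adjusted p = 0.948), and C1QB was at 0. In the libraries with more ferritin mRNA, CD14 and VSIG4 were thus higher, whereas MARCO was lower and CSF1R was not called. Of the 13 HL-60 markers, 6 were lower there and the rest were not called. The part of these markers in the ferritin levels was not tested.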

How the data were processed

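The deposited tables, 1 for each of 6 libraries, hold raw read counts by Ensembl identifier, made by the authors from 150 bp paired-end reads of a stranded mRNA kit, per the labels' protocols. HISAT2 2.1.0, featureCounts 1.6.3 and the builds GRCh38 and GRCm38 are named in the submitters' processing notes. How strand and multiply aligned reads were handled is not given in the sources used here. The proteome was not analysed here, and some items are not reported here.

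The 6 ferritin genes and all gene lists were chosen with earlier results of these data known. Symbols, types, positions and transcripts came from GENCODE release 29 (58039 of 58302 identifiers) and a symbol table (57532 of them), and 263 identifiers were in neither. Under R 4.3.3, edgeR 4.0.16 fitted the counts by its quasi-likelihood method with TMM scaling, a single group term and filterByExpr (minimum count 10, minimum total 15), two-sided, Benjamini-Hochberg adjusted over 14018 genes and called at an adjusted p under 0.05. Lists were described by counts and medians, without a set test. CPM is given as mean ± SD over 3 libraries. Per-kilobase values used 1 transcript for each gene. Copies were aligned to the parent transcript with Biopython 1.88.

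The 39 named genes were the 6, OSGEP, 11 genes of iron and antioxidant control, up to 4 called genes with the largest absolute change and a mean CPM of at least 5 in each list (where none was called, the 2 most abundant), and the 5 nearest profiles to FTH1 and to FTL. Others are marked as chosen later. HFE2 was not matched. Library pairs within a group differed with a chi-square per degree of freedom of 10.5 to 25.6, which cannot tell whether they came from independent cultures. Each library was counted as 1 sample. Total counts were 9725775, 10157091 and 8326982 in OSGEP shRNA libraries 1, 2 and 3 and 9902839, 10025573 and 8414775 in control shRNA libraries 1, 2 and 3. Alternatives were no filter, RLE size factors, scaling by total count, a mean CPM of at least 5, a replicate block, DESeq2 1.42.0, limma-voom 3.58.1, a threshold of 0.01, copies added to the parent, and each library left out in turn. The steps were tested on simulated data.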

Additional observations from a re-analysis of the deposited data

How the results depend on the processing

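All 6 ferritin genes kept their direction and call under the 13 alternatives that fitted each of them, and FTH1 and FTL also with the copies added. These were refits of the libraries on which the 6 were picked, so nothing is read from the calls. Log2 fold changes were 1.4 to 1.76 for FTH1, 1.05 to 1.19 for FTL, 2.13 to 2.34 for FTH1P20, 2.04 to 2.36 for FTH1P7, 1.51 to 1.91 for FTH1P8 and 1.18 to 1.36 for FTLP3. The value that moved by more than the spread between libraries was that of FTH1, 1.76 with its copies added. The log2 difference of the FTH1P8 to FTH1 ratio, 0.12, turned to -0.08 without control shRNA library 1, the lowest ratio of its group, and reached 0.51 without control shRNA library 3. The 1507 called genes became 823 at an adjusted p under 0.01 and 870 to 1624 with 1 library left out (941 without OSGEP shRNA library 3, 890 without control shRNA library 2, 870 without control shRNA library 3). With the replicate number as a block 1072 genes were called, 519 higher and 553 lower. The numbers share no stated batch, and deviations of same-numbered libraries correlated at -0.116, -0.062 and -0.037, so they were not taken to pair the samples. Calls in the lists, with 1 library left out, ran from 0 to 1 for the other ferritin copies, 1 to 2 for iron-responsive element transcripts, 0 to 2 for ferritin control and turnover (1 without a filter and 1 with the replicate block), 5 to 9 for iron uptake, export and heme, and 54 to 125 for processed pseudogenes, against 96. These were 54 without OSGEP shRNA library 3, 61 without control shRNA library 2 and 54 without control shRNA library 3. IREB2, at -0.04, turned to 0.04 with library size alone and to 0.02 without OSGEP shRNA library 3 or control shRNA library 2, with -0.11 to 0.02 over all left-out libraries. BACH1, at 0.00, turned to -0.01 with limma-voom and to -0.02 to -0.01 without OSGEP shRNA library 1 or 3 or control shRNA library 1, and to -0.06 without control shRNA library 3, with -0.06 to 0.08 over all left-out libraries. WDR45 was not called without a filter or with the replicate block (0.84 each), and FECH was not called with the block (0.51). The cause of these shifts was not tested. Library size alone moved the median of all genes to 0.076. The ferritin copies below the filter on low counts were not tested.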

Other observations

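Markers of lymphoid, epithelial and mesenchymal cells were measured as well, and none of these values was used for the ferritin genes. The summed level of 10 lymphoid markers was 30.3 to 33.7 CPM with OSGEP shRNA against 85.7 to 100.2 CPM with control shRNA. Of these, 2 were tested and 1 fell, NKG7, a granule protein of cytotoxic cells, at 23.3 ± 1.81 CPM with OSGEP shRNA and 86.1 ± 7.16 CPM with control shRNA (SD, n = 3 each; log2 fold change -1.88, edgeR adjusted p = 2.08e-06). NKG7 made up most of the lymphoid sum, and each of the other lymphoid markers averaged 3.67 CPM or less in either group. The summed level of 10 epithelial and mesenchymal markers was 38.5 to 62.4 CPM with OSGEP shRNA against 26.9 to 33.1 CPM with control shRNA. Of these, 6 were tested and 1 rose, CDH1, the adhesion protein E-cadherin, at 11.8 ± 1.66 CPM with OSGEP shRNA and 3.89 ± 0.480 CPM with control shRNA (SD, n = 3 each; log2 fold change 1.59, edgeR adjusted p = 0.0219). Over all genes tested, 5.19% were called higher and 5.56% lower with OSGEP shRNA. NKG7 and CDH1 were named after their values were seen.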
